A study of Mus musculus with 6 samples.

Results

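The 9 genes described here encode the proteins that make, hold back, cut and carry the lipogenic transcription factors SREBP and ChREBP, and they were taken by symbol from the 55385 genes measured. They are Srebf1 and Srebf2, the SREBP precursors, Scap, their escort, Insig1 and Insig2, the retention proteins, Mbtps1 and Mbtps2, the proteases S1P and S2P, and Mlxipl and Mlxip, which encode ChREBP and MondoA. All 9 had values in every library and passed the filter on low counts, as did 19427 genes in all. RNA was sequenced from mammary tumors of female NeuT/ATTAC+AP mice, described as coming from 3 control mice and 3 mice fed DMHCA, a steroidal agonist of the liver X receptor (LXR). Mice of both groups carried a constitutively active rat ErbB2 transgene under the MMTV promoter, which is active in mammary epithelium, and a caspase-8 fusion protein (FAT-ATTAC) under the FABP4 promoter, which is active in fat cells. The dimerizer AP20187 switches on the caspase and so removes part of the mammary fat. Injections of 0.4 mg/kg began at an age of 6 weeks, and the treated mice also received a diet with 0.05% DMHCA (100 mg/kg) from an age of 8 weeks until tumors appeared. The control label, AP20187 Vehicle, can be read as AP20187 with its vehicle or as vehicle alone, and the labels call the tissue fibrotic mammary gland.

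SREBP proteins are made as precursors in the membrane of the endoplasmic reticulum (ER), bound to SCAP. When ER sterol is high, INSIG proteins hold SCAP back, and when it is low, SCAP carries the precursor in COPII vesicles to the Golgi, where S1P and then S2P release the part that enters the nucleus. SREBP-1c drives fatty acid synthesis and SREBP-2 sterol synthesis and uptake, and LXR, the receptor for oxysterols, induces transcription of Srebf1. ChREBP and MondoA are not cut. They respond to glucose metabolites and bind DNA with their partner MLX. Cleavage and nuclear entry are not measured by RNA levels, so the values here describe only the transcripts.

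Expected counts summed to between 46358654 and 63420620 per library. DMHCA libraries 1 and 3 were nearly the same, with a median absolute log2 ratio of 0.0485 over well-counted genes against 0.368 to 0.5 in every other pair within a group, and they were summed and counted as 1 sample, which left 3 control and 2 DMHCA samples. Luminal epithelial markers were present in every library, with a summed level of 3140 to 4029 TPM (length-corrected transcript abundance) in the control libraries and 4698 to 4828 TPM in the DMHCA libraries. Control library 3 stood apart, with 1274 TPM of 8 summed adipocyte markers and 168 TPM of 3 B cell markers, against at most 306 and 19.3 TPM in the other control libraries. All 8 adipocyte markers were lower in the DMHCA samples without overlap in normalized counts (background 12.2%), while in TPM Plin1 and Retn overlapped. Their summed level was 70.8 to 78.9 TPM there and 135 to 1274 TPM in the controls. None was at 0 in every DMHCA library, and Lep alone was listed at 0 in DMHCA library 3. At an unadjusted p under 0.05 (edgeR), all 8 were lower (background 4.08%), and also without control library 3. By the same measure, lower values were found for 3 of 3 B cell markers, 1 of 4 T cell markers, 1 of 5 milk protein genes and 1 of 4 basal epithelial markers, with median log2 fold changes of -6.88, -3.38, -4.43 and -2.67. Without control library 3 these counts were 1, 0, 0 and 0, with medians of -4.00, -0.77, -1.43 and -0.84. Samples of both groups overlapped for all of the B cell, T cell and milk protein genes, and the part of these cells in the results below was not tested. In bulk tissue, fewer cells of a type and less RNA per cell cannot be told apart.

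Srebf1 had the largest difference of the 9 genes. It lies on the minus strand of chromosome 11 (GRCm38, chr11:60199089-60222581). Normalized counts were 35429, 20549 and 30352 in control samples 1, 2 and 3 and 93600 and 137556 in DMHCA sample 2 and the summed DMHCA sample. The lowest DMHCA sample was therefore above the highest control, and the group means were 28776 ± 7564 (SD, n = 3) and 115578 ± 31081 (SD, n = 2). The fold change was 4.02, a log2 fold change of 2.01 with a 95% interval of 1.08 to 2.93. The unadjusted p was 0.00156 by edgeR's quasi-likelihood F-test, and after Benjamini-Hochberg adjustment over 19427 genes it was 0.644. That adjusted value was the smallest of any gene, so the edgeR test called 0 genes (0% of those tested) and 0 members. At an unadjusted p under 0.05, edgeR found 1 of the 9 members, Srebf1, against a background of 3.53% of genes higher and 4.08% lower with DMHCA, 7.61% in either direction. Control and DMHCA samples were fully separated for 1 of 9 members, again Srebf1, and for 13.8% of genes in the higher and 12.2% in the lower direction. DESeq2 on the same 5 samples gave Srebf1 a log2 fold change of 2.04 with an adjusted p of 0.0011, in a comparison where it called 0.247% of genes higher and 0.957% lower. The DESeq2 test that counted all 6 libraries gave 2.11 with an adjusted p of 1.01e-06, and called 1.43% of genes higher and 2.95% lower. Neither DESeq2 fit called another member. The study lists Srebf1 among the changed genes it chose on these same libraries, so its place here is not independent evidence of its direction. The summed level of adipocyte markers was lower in every DMHCA library while Srebf1 was higher, and that of luminal markers was higher in TPM in every DMHCA library than in any control. Of the 6 luminal markers 3 were higher and 3 lower in edgeR, 0 at an unadjusted p under 0.05, with a median log2 fold change of 0.16. The part of either in the Srebf1 difference was not tested.

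**Figure D1:**
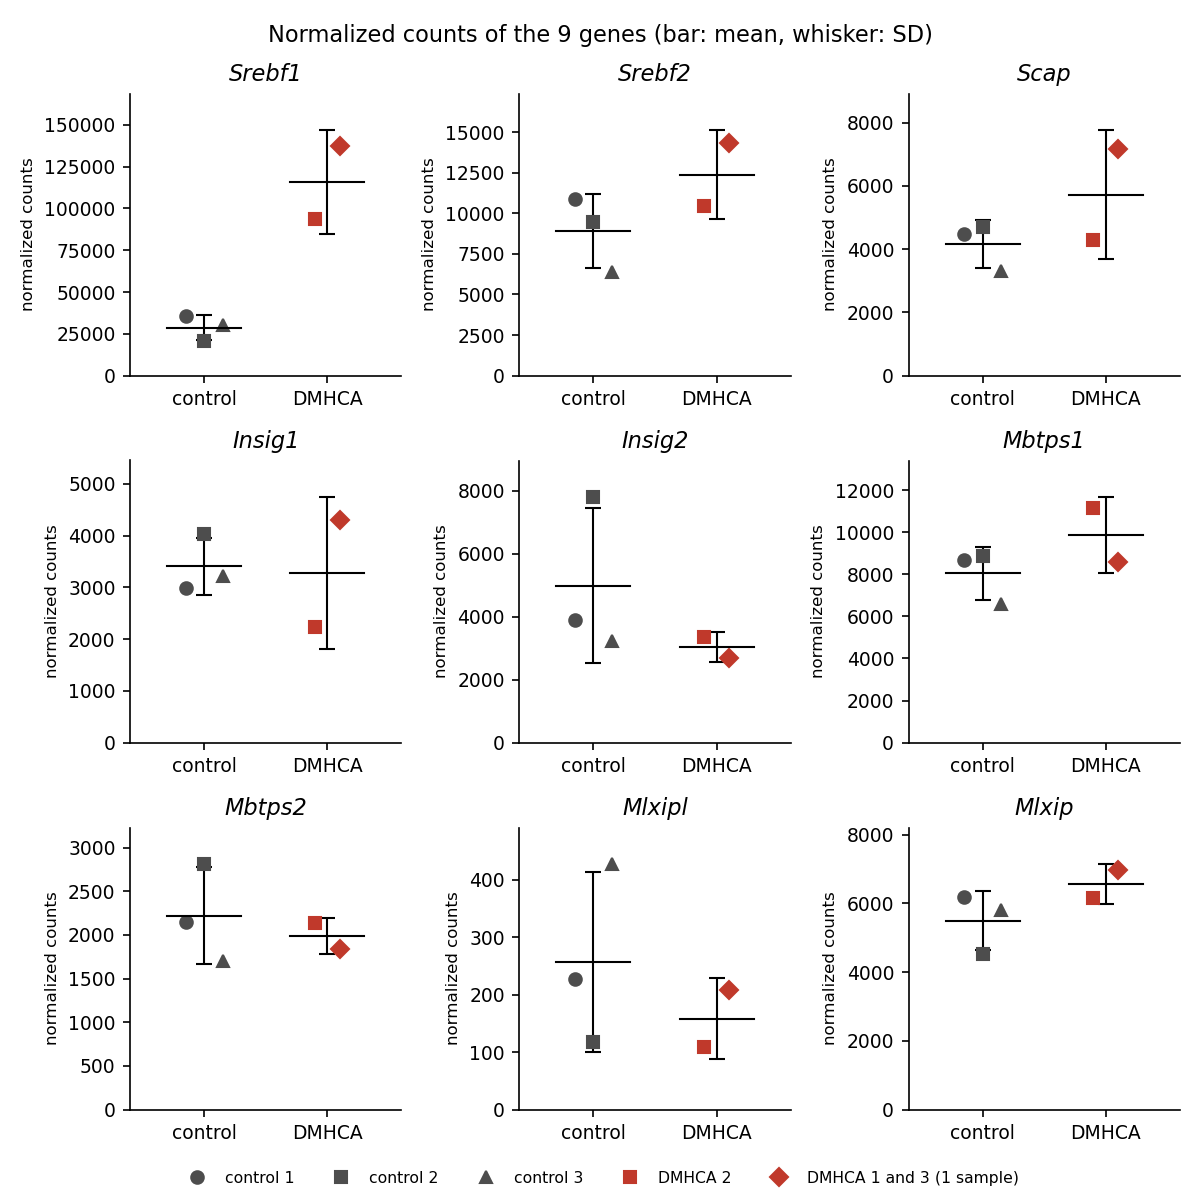
Normalized counts (axis from 0) of the 9 genes in 3 control samples (grey) and 2 DMHCA samples (red), where bars are means and whiskers SD. Srebf1 is the panel in which both DMHCA samples, at 93600 and 137556, lie above all controls, and in the other 8 panels the groups overlap.

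In each library Srebf1 was among the abundant transcripts. Its level was 234, 95.2 and 193 TPM in control libraries 1 to 3 and 932, 659 and 941 TPM in DMHCA libraries 1 to 3, which placed it between the 93.3 and 97 percentile of the genes tested in the controls and between 98.8 and 99.1 in the DMHCA libraries. RSEM also gives a transcript length weighted by the abundance of each isoform, and for Srebf1 it was 3473, 3665 and 3350 bases in the controls and 3267, 3465 and 3291 bases in the DMHCA libraries. The DMHCA mean was 124 bases shorter, a difference of -124 within overlapping values (exact two-sided permutation test over 3 and 2 samples, p = 0.4, where 0.2 is the smallest p possible). With so few samples this test could not have found a shift in the mix of Srebf1 isoforms. Exons of Srebf1 overlap those of Rai1 on the opposite strand and Mir6922 on the same strand, and it is not stated whether counting used strand, so reads in the overlap are uncertain.

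Srebf1 has separate starts for SREBP-1a and, further downstream, SREBP-1c, the form known to respond to LXR. RefSeq also gives a window at a further start, upstream of both (chr11:60222582-60222831), which is not shown and held none of the motifs marked below. The 250 bases before the SREBP-1a and SREBP-1c starts are shown because Srebf1 was the member that differed most, beside those of its paralog Srebf2 and of Insig1, both known to be sterol-regulated (RefSeq windows, GRCm38.p6; each read 5′ to 3′ on the gene's strand). Capitals mark matches on either strand to GGTTACT, the first letters of the known LXR elements of this promoter itself, to ATCACCCCA, a sterol regulatory element (SRE), to its inner letters TCACCC, or to the E-box CACGTG. The letters TCACCC lie within ATCACCCCA, so a match to the longer is also a match to the shorter.
Srebf1, SREBP-1c start, chr11:60210472-60210721, minus strand: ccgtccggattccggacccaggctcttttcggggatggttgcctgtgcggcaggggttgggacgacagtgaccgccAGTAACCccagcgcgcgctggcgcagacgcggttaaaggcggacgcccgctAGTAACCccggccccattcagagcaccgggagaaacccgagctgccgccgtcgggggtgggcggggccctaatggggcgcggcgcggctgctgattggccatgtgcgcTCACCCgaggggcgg
Srebf1, SREBP-1a start, chr11:60220628-60220877, minus strand: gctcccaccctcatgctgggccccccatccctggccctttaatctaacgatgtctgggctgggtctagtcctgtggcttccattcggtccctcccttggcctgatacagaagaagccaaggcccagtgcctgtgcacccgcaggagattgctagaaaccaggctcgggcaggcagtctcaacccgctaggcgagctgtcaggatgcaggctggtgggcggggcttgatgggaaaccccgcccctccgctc
Srebf2, chr15:82147019-82147268, plus strand: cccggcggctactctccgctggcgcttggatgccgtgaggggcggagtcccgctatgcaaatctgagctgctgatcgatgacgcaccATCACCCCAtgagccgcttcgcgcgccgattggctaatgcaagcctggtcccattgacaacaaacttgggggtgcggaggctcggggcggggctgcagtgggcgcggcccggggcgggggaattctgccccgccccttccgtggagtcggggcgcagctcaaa
Insig1, chr5:28071162-28071411, plus strand: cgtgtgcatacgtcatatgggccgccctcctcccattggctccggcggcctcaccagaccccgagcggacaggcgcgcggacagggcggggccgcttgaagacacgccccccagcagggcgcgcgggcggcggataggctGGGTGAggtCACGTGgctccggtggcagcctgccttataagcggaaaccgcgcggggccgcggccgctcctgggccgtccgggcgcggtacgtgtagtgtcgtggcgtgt

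The SREBP-1c window held 2 matches to GGTTACT, both on the opposite strand, at 174 to 168 and 123 to 117 bases before the start, and a TCACCC at 15 to 10 bases before it. GGTTACT was found in 1.88% of 32851 promoter windows of this length, and 12 windows held it at 2 or more places, but the letters were taken from elements of this promoter. The SREBP-1a window held none of the 4 motifs. The Srebf2 window held ATCACCCCA at 163 to 155 bases before the start, a motif found in 0.24% of windows. The Insig1 window held TCACCC on the opposite strand at 110 to 105 bases and CACGTG at 101 to 96 bases before the start, and these motifs were found in 13.8% and 6.02% of windows. All 9 members had RefSeq windows, 15 in all, and none of the 15 held a direct repeat of AGGTCA with 4 bases between, the common LXR motif, found in 0.0152% of windows. Of the members not shown, Scap and Mlxipl each had a window with CACGTG, and Insig2 had TCACCC in 2 of its 3 windows. These matches describe letters and are not evidence of binding.

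Srebf2 (chr15:82147181-82205379, plus strand) encodes SREBP-2, the regulator of sterol synthesis. It had 10865, 9441 and 6389 normalized counts in the controls and 10451 and 14309 in the DMHCA samples. Control sample 1 lay above DMHCA sample 2, so the groups overlapped. Its log2 fold change was 0.48 (95% interval -0.31 to 1.26, edgeR adjusted p = 0.701) and 0.28 to 0.72 with each library left out. The balance between the paralogs was compared within each library, where library scaling cancels. The ratio of Srebf1 to Srebf2 in TPM was 4.07, 2.43 and 6.13 in the controls and 12.2, 11 and 12.3 in the DMHCA libraries. Srebf1 thus made up 70.8% to 86.0% of the TPM of the 2 genes in the controls and 91.7% to 92.5% with DMHCA. The groups did not overlap, and the difference in the log2 ratio was 1.56 (exact two-sided permutation test, p = 0.2, adjusted over 4 pairs 0.4), and 1.22 to 1.88 with each library left out. With 3 against 2 samples, 0.2 is the smallest p this test can give.

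**Figure D2:**
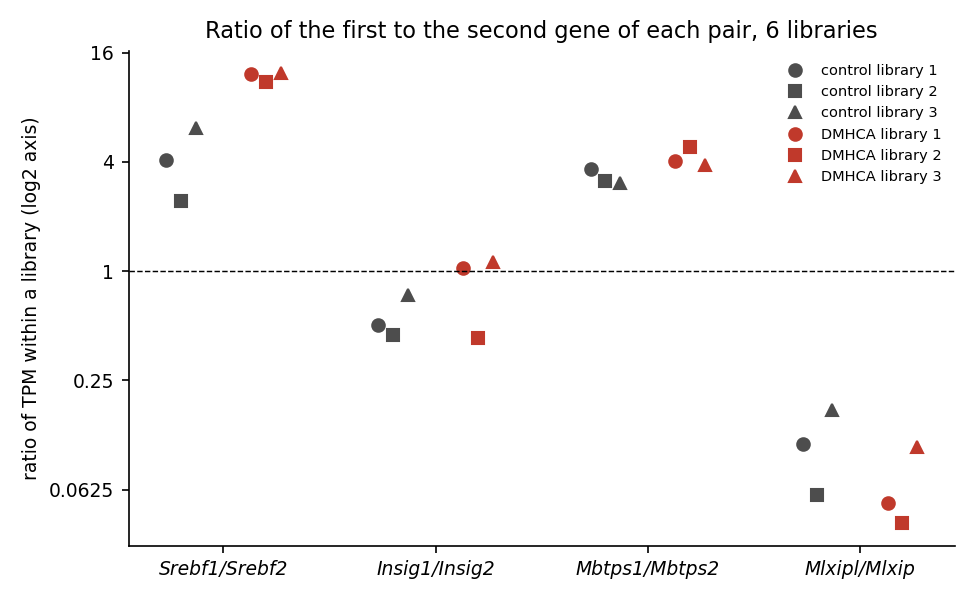
Ratio of TPM (log2 axis) of the first to the second gene of each of 4 pairs in the 6 libraries, controls in grey and DMHCA in red. For Srebf1/Srebf2 all DMHCA libraries lie at 11 to 12.3 and all controls at 2.43 to 6.13, while Insig1/Insig2 and Mlxipl/Mlxip overlap.

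Scap (chr9:110333288-110384950, plus strand), the sterol-sensing escort of SREBP, had 4485, 4703 and 3295 normalized counts in the controls and 4272 and 7157 in the DMHCA samples. The summed DMHCA sample was the highest of the 5 and DMHCA sample 2 lay among the controls. The log2 fold change was 0.46 (95% interval -0.30 to 1.22, edgeR adjusted p = 0.704), and 0.31 (without control library 3) to 0.82 (without DMHCA library 2) with each library left out. The scale matters for Scap, Srebf2 and Mlxip, since in TPM their lowest DMHCA sample lay above the highest control. In TPM, 4 of 9 members were higher without overlap, against 1 in normalized counts, and so were 20.3% of all genes, against 13.8%. In TPM, 6.97% of genes and no member were lower without overlap. Exons of Scap overlap a gene on the opposite strand, 5830462I19Rik.

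The genes of the retention proteins differed in how they varied. Insig1 (chr5:28071363-28078662, plus strand), itself a target of SREBP, had 2989, 4029 and 3213 normalized counts in the controls and 2234 and 4312 in the DMHCA samples, so that the DMHCA samples held both the lowest and the highest value. Its log2 fold change was -0.06 (95% interval -0.88 to 0.76, edgeR adjusted p = 0.966), and its sign turned to 0.08 without control library 2 and to 0.38 without DMHCA library 2. In TPM the 3 controls were between 26.9 and 27.1, and DMHCA libraries 1, 2 and 3 had 37.4, 21.1 and 38.6. Insig2 (chr1:121304353-121332589, minus strand), the isoform that is not an SREBP target in most tissues, had 3905, 7785 and 3240 normalized counts in the controls and 3364 and 2700 with DMHCA. Control sample 2 was far above the rest, and DMHCA sample 2 lay above control sample 3. Its log2 fold change was -0.72 (95% interval -1.73 to 0.30, edgeR adjusted p = 0.675), and -0.24 without control library 2. The ratio of Insig1 to Insig2 was 0.506, 0.444 and 0.736 in the controls and 1.04, 0.425 and 1.12 in DMHCA libraries 1, 2 and 3. The DMHCA samples lay on both sides of the controls, with a difference in log2 ratio of 0.30 (exact permutation test, p = 0.8). The difference was 0.98 without DMHCA library 2 and 0.15 without control library 2.

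The proteases showed narrower ranges. Mbtps1 (chr8:119508156-119558735, minus strand), which encodes S1P, had 8697, 8855 and 6599 normalized counts in the controls and 11129 and 8592 with DMHCA. Its log2 fold change was 0.29 (95% interval -0.37 to 0.96, edgeR adjusted p = 0.764), and 0.13 to 0.37 with each library left out, lowest without DMHCA library 2. Mbtps2 (chrX:157535371-157598715, minus strand), which encodes S2P, had 2150, 2809 and 1702 in the controls and 2137 and 1841 with DMHCA, so both DMHCA samples lay inside the control range. Its log2 fold change was -0.16 (95% interval -0.88 to 0.56, edgeR adjusted p = 0.887), and 0.04 without control library 2. Mbtps2 holds the gene Yy2, which shares exon sequence with it on the same strand, so its counts may include reads of Yy2. The ratio of Mbtps1 to Mbtps2 was 3.65, 3.14 and 3.06 in the controls and 4.04, 4.81 and 3.83 in the DMHCA libraries. These values did not overlap, with a difference in log2 ratio of 0.41 at the smallest possible p (exact permutation test, p = 0.2, adjusted 0.4), and of 0.26 without DMHCA library 2.

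ChREBP and MondoA were expressed at very different levels. Mlxip (chr5:123394798-123457932, plus strand), which encodes MondoA, had 6176, 4524 and 5811 normalized counts in the controls and 6146 and 6970 with DMHCA, with a log2 fold change of 0.25 (95% interval -0.37 to 0.87, edgeR adjusted p = 0.779) and values of 0.13 to 0.38 with each library left out. DMHCA sample 2 lay just under control sample 1. Mlxipl (chr5:135089890-135138382, plus strand), which encodes ChREBP and is known for its high expression in liver and fat, had 227, 118 and 427 normalized counts in the controls and 109 and 208 with DMHCA. Control library 3, which had the most adipocyte marker RNA, was the highest and control library 2, which had the least among controls, was the lowest control. The log2 fold change was -0.70 with the widest interval of the 9 genes, -2.33 to 0.94 (edgeR adjusted p = 0.771), and -0.13 without control library 3. The part of adipocyte RNA in the Mlxipl values was not tested. TPM of Mlxipl was also imprecise, since the nearly identical DMHCA libraries 1 and 3 had 155 and 190 expected counts but 1.34 and 2.64 TPM, with weighted transcript lengths of 3032 and 2058 bases. Mlxipl was 0.111, 0.0581 and 0.171 of Mlxip in the controls and 0.0527, 0.0408 and 0.107 in the DMHCA libraries (difference in log2 ratio -0.86, exact permutation test, p = 0.4, adjusted 0.533), a difference that ranged from -1.28 to -0.38 with each library left out. Mlxip and Mlxipl each share exon sequence with a gene on the opposite strand, Gm15747 and Gm43500.

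**Figure D3:**
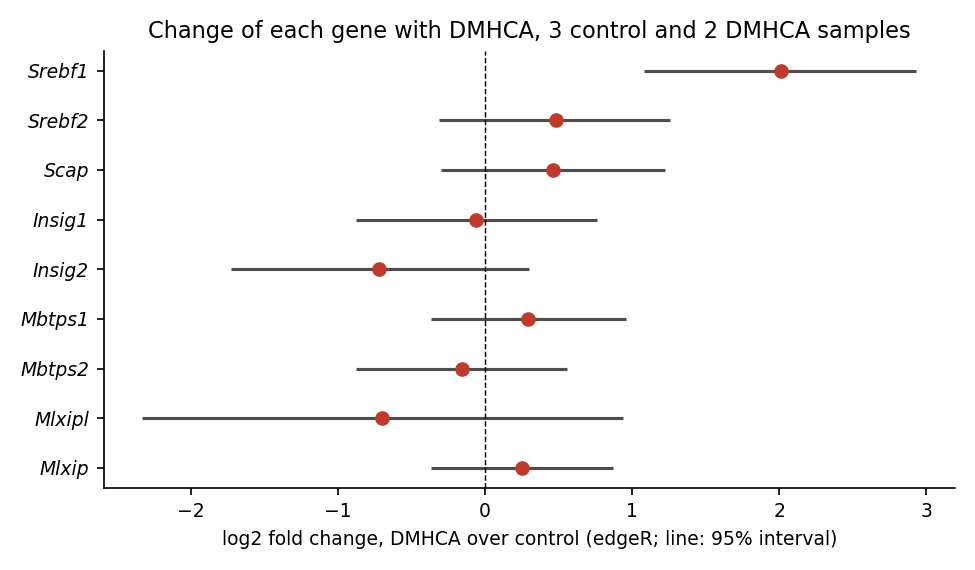
Log2 fold change of each gene, DMHCA over control, by edgeR (points) with its 95% interval (lines), from 3 control and 2 DMHCA samples. The interval of Srebf1, 1.08 to 2.93, lies above 0, and those of the other 8 genes include 0.

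Per unit of length, the order of the 9 transcripts was led by Srebf1 and closed by Mlxipl in both groups. In the controls Srebf1 (95.2 to 234 TPM) was followed by Insig2 (36.6 to 61.0), Srebf2 (31.5 to 57.4) and Mbtps1 (33.9 to 49.5), whose ranges overlapped, so their order is not resolved. Insig1 (26.9 to 27.1) lay just above Scap (18.2 to 26.3), which overlapped with Mlxip (12.7 to 22.4), and Mlxip overlapped with Mbtps2 (11.1 to 13.6). Mlxipl was lowest, at 0.74 to 3.55 TPM. With DMHCA, and libraries 1 and 3 averaged, Srebf1 stood at 659 to 936 TPM and the next gene, Srebf2, at 59.8 to 76.5. Mbtps1 (46.4 to 66.8), Insig2 (35.2 to 49.7), Scap (27.1 to 41.3), Insig1 (21.1 to 38.0) and Mlxip (22.6 to 25.0) each overlapped with the gene before it. Mbtps2 stood at 11.8 to 13.9 TPM and Mlxipl at 0.92 to 1.99.

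The genes that SREBP-1 is known to drive were compared next. Of 19 genes of fatty acid synthesis, all tested, 15 had a positive log2 fold change, and the median was 0.64 against -0.03 over all genes tested. In edgeR, 0 passed the adjusted threshold, 6 were higher at an unadjusted p under 0.05 (background 3.53%) and none was lower, and 10 were higher without overlap (background 13.8%). The number at an unadjusted p under 0.05 was 4 to 9 when each library was left out in turn, and 9 without control library 3. Scd1, the main stearoyl-CoA desaturase, had 44061, 32336 and 89309 normalized counts in the controls and 405062 and 400885 with DMHCA. Its log2 fold change was 2.87 (edgeR unadjusted p = 0.00122). Scd2, its paralog, had 37726, 25691 and 14548 in the controls and 117426 and 113615 with DMHCA (log2 fold change 2.15, unadjusted p = 0.00250). These desaturases were the genes of the list with both DMHCA samples far above the controls. Mid1ip1, which helps acetyl-CoA carboxylase to polymerize, had a log2 fold change of 1.14 (edgeR unadjusted p = 0.00593), and Gpam, the first acyltransferase of triglyceride synthesis, one of 1.02 (unadjusted p = 0.00711). The other genes at an unadjusted p under 0.05, named after their values were seen, were Acacb, an acetyl-CoA carboxylase, with a log2 fold change of 1.19 (edgeR unadjusted p = 0.0409), and Acly, ATP citrate lyase, with one of 1.02 (unadjusted p = 0.0436). For both, the summed DMHCA sample lay just above control sample 3. Leaving out control library 1, control library 2 or DMHCA library 2 took both out of the genes with an unadjusted p under 0.05, and leaving out DMHCA library 2 took out Mid1ip1, while Scd1, Scd2 and Gpam stayed under 0.05 with any library left out. DESeq2 on the 5 samples called Scd1 (adjusted p = 5.12e-05) and Scd2 (adjusted p = 0.00658), and on 6 libraries it called 4 genes, these and Gpam and Mid1ip1. Fasn and Thrsp were also named after their values were seen. Fasn, fatty acid synthase, had 13898, 9895 and 30126 normalized counts in the controls and 35606 and 33173 with DMHCA, so that control sample 3 came close to the DMHCA samples. Thrsp, a lipogenic protein abundant in fat, had 1247, 222 and 13063 in the controls and 138 and 6803 with DMHCA, with the highest value in the library rich in adipocyte markers. The next highest was in the summed DMHCA sample. DMHCA libraries 1 and 3 had 72.6 and 70.8 TPM of summed adipocyte markers, against 306 TPM in control library 1. Scd1 and Fasn are also expressed by fat cells, whose markers were lower with DMHCA as given above, and the part of these cells in the list's values was not tested.

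The SREBP-2 list showed a different picture. Of 23 genes of sterol synthesis and uptake, 22 passed the filter on low counts and were tested. The median log2 fold change was 0.10, 13 genes were above 0 and 9 below, and with each library left out the median lay between -0.13 (without control library 3) and 0.35 (without control library 2). By edgeR, 1 was higher at an unadjusted p under 0.05 (background 3.53%) and 2 were higher without overlap (background 13.8%), shares close to or below those of all genes. That gene was Dhcr7, the last step of cholesterol synthesis in the Kandutsch-Russell branch, with 4610, 3814 and 2266 normalized counts in the controls and 7825 and 11167 with DMHCA (log2 fold change 1.41, edgeR unadjusted p = 0.00670). DESeq2 gave Dhcr7 an adjusted p of 0.115 on 5 samples and 0.0061 on 6 libraries. Msmo1, a sterol demethylase, had a log2 fold change of -0.65 (edgeR unadjusted p = 0.266) and Lss, lanosterol synthase, one of 0.37 (unadjusted p = 0.301). The difference between the fatty acid and the sterol list was not tested.

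Of 10 ChREBP target genes, 6 passed the filter on low counts and were tested. The median log2 fold change was -0.30, and it was 0.00 without DMHCA library 2. At an unadjusted p under 0.05 edgeR found 1 gene higher (background 3.53%) and none lower, and 0 genes without control library 1 or without DMHCA library 2. Arrdc4 and Txnip encode related arrestins that MondoA and ChREBP are known to induce. Arrdc4 had 4333, 2558 and 5346 normalized counts in the controls and 8250 and 7260 with DMHCA (log2 fold change 0.93, edgeR unadjusted p = 0.0343). Txnip had 39422, 41648 and 62271 in the controls and 24211 and 32365 with DMHCA (log2 fold change -0.76, unadjusted p = 0.0796). The groups overlapped for neither gene, and they differed in opposite directions. Khk, ketohexokinase, was lower without overlap (log2 fold change -0.87, edgeR unadjusted p = 0.0900), and Rgs16 overlapped (-0.31, unadjusted p = 0.551). Of the 6 genes, 1 was higher and 2 were lower without overlap (background 13.8% and 12.2%). Among 11 genes of the MLX and MAX network, the partners and rivals of these factors, edgeR found 0 at an unadjusted p under 0.05 (background 7.61%). Mlx itself had a log2 fold change of -0.03, Mxd4 one of -0.60 (unadjusted p = 0.0509) and Mxd1 one of -0.51 (unadjusted p = 0.111). The latter 2 of the 11 were lower and 0 were higher without overlap (background 12.2% and 13.8%).

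LXR targets other than Srebf1 were compared because LXR is the receptor of DMHCA. Of 11 genes, 9 were tested, and Abcg5 and Abcg8 were at or near 0. Their median log2 fold change was 0.69, with 2 higher and none lower at an unadjusted p under 0.05 (edgeR, background 3.53% and 4.08%), 4 higher and 2 lower without overlap (background 13.8% and 12.2%). Abca1, the cholesterol exporter, had 6166, 4038 and 7417 normalized counts in the controls and 12230 and 17996 with DMHCA (log2 fold change 1.36, edgeR unadjusted p = 0.00669). Mylip, the ligase that degrades the LDL receptor, had a log2 fold change of 0.86 (unadjusted p = 0.0380), and its unadjusted p was no longer under 0.05 without control library 2 or control library 3. DESeq2 on 5 samples called 0 of these genes at an adjusted p under 0.05 (3 higher and 1 lower at an unadjusted p under 0.05), and on 6 libraries 2, Abca1 and Apoc1. Apoc1 had 1510, 280 and 3960 in the controls and 2068 and 18846 with DMHCA, so its value of 2.45 (edgeR unadjusted p = 0.0759) came from the summed DMHCA sample. Lpcat3, a phospholipid-remodelling enzyme, overlapped narrowly (0.69, unadjusted p = 0.0912). The 2 genes lower without overlap, named outside the rule, were Lpl (-1.75, edgeR unadjusted p = 0.0943) and Apoe (-0.53, unadjusted p = 0.203). Lpl had 4370, 3722 and 25679 normalized counts in the controls and 3034 and 3637 with DMHCA. Of the 5 receptor genes, 4 had a positive log2 fold change (median 0.40), and 1 was lower at an unadjusted p under 0.05 (edgeR, background 4.08%). That gene was Nr1h3, which encodes LXR alpha. Nr1h3 had 434, 368 and 1026 normalized counts in the controls and 205 and 237 with DMHCA (log2 fold change -1.46, edgeR unadjusted p = 0.0440). Its call was lost without control library 1, control library 3 or DMHCA library 2. Like the adipocyte markers, it was highest in control library 3, and the part of fat cells in its difference was not tested. Rxra, its partner, had a log2 fold change of 0.48 (unadjusted p = 0.129). Nr1h2, named outside the rule, encodes LXR beta, which the study describes as the major isoform in this model. It had 6088, 3724 and 5019 normalized counts in the controls and 6109 and 6908 with DMHCA (log2 fold change 0.40, edgeR unadjusted p = 0.213).

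**Figure D4:**
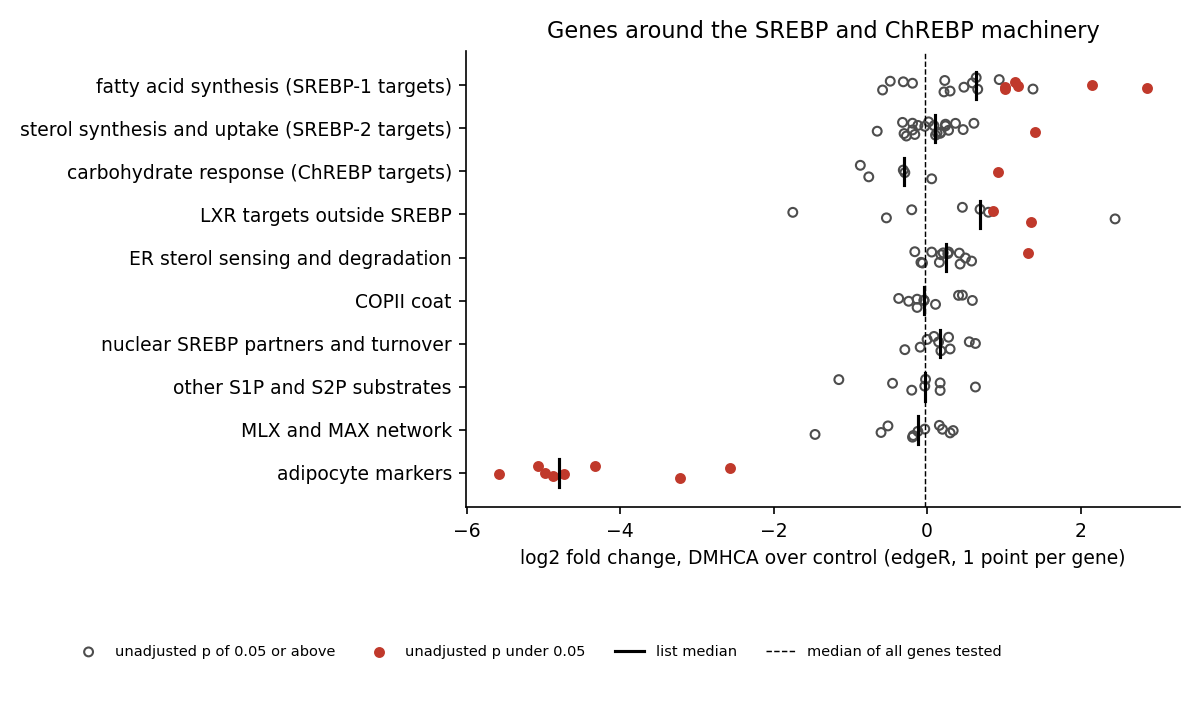
Log2 fold change, DMHCA over control (edgeR), of each tested gene in 9 lists around the SREBP and ChREBP machinery and in the adipocyte markers, with list medians (bars) and the median of all genes (dashed, -0.03). Filled points have an unadjusted p under 0.05 and none passed adjustment. The fatty acid list has its median at 0.64, the sterol list at 0.10 and the adipocyte markers at -4.80.

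Among 14 tested genes of sterol sensing and degradation in the ER, edgeR found 1 at an unadjusted p under 0.05, near the background of 7.61%, and 4 were higher without overlap (background 13.8%; median log2 fold change 0.24). That gene was Rnf145, an ER ubiquitin ligase known as an LXR target that acts on SCAP. Rnf145 had 6801, 6900 and 8286 normalized counts in the controls and 15553 and 20733 with DMHCA, a log2 fold change of 1.31 (edgeR unadjusted p = 0.00241), and DESeq2 on 5 samples called it (adjusted p = 0.02). The controls lay close together and both DMHCA samples were well above them, and Rnf145 kept an unadjusted p under 0.05 when any single library was left out. 2410131K14Rik, an older name of Spring1, the cofactor that S1P needs, had 1534, 1561 and 1144 in the controls and 2356 and 1858 with DMHCA (log2 fold change 0.58, unadjusted p = 0.0857). Rnf139, a ligase of the same membrane named outside the rule, had a log2 fold change of -0.06.

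The transport and nuclear steps showed no such gene. Of 10 COPII coat genes, edgeR found 0 at an unadjusted p under 0.05 (background 7.61%) and 3 were higher without overlap (background 13.8%), with a median log2 fold change of -0.04. Sec31a, of the outer coat, had one of 0.59 (unadjusted p = 0.0687) and Sec23b, of the inner coat, one of 0.46 (unadjusted p = 0.116). Of 10 nuclear partners and turnover factors of SREBP, edgeR also found 0 (median 0.17). The coactivator Ep300 had a log2 fold change of 0.63 (unadjusted p = 0.0930) and Nfya, a subunit of the CCAAT-binding factor, one of 0.55 (unadjusted p = 0.131). Other substrates of S1P and S2P served as a comparison with the proteases, and of 8 tested edgeR found 0 at an unadjusted p under 0.05 (median -0.03). Creb3l1, an ER-stress and secretory factor, had a log2 fold change of 0.63 (unadjusted p = 0.167), and Creb3l3, a liver factor with at most 42.8 normalized counts in any sample, one of -1.15 (unadjusted p = 0.103).

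Genes with the profile most like that of 3 members were sought among 14166 genes with a mean of at least 100 normalized counts, by the root mean square difference of centred log2 values over the 5 samples. Closest to Srebf1 were Gpr161 (0.168), Wdr62 (0.179), Irgq (0.231), Bckdha (0.236) and Apln (0.254). Irgq had 5296, 2203 and 3542 normalized counts in the controls and 12532 and 13056 with DMHCA, and like Srebf1 it was lowest in control sample 2. Closest to Insig1 were Cdcp1 (0.0402), Mto1 (0.0428), Ift27 (0.0479), Mtmr2 (0.0495) and Cox14 (0.0569), all with the lowest value in DMHCA sample 2. Closest to Mlxipl were Gm28417 (0.0434), Timp2 (0.0871), Prkg1 (0.0876), Rasgrp4 (0.0982) and Susd3 (0.119), all highest in control sample 3. With 5 samples many genes can share a profile.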

How the data were processed

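Tumor RNA of 3 control libraries and 3 DMHCA libraries was sequenced. Per the labels and the methods, the authors checked reads with FastQC 0.11.9, trimmed with Cutadapt 2.9 and ran RSEM 1.3.1 with Bowtie2 2.4.1 on the Ensembl mouse genome (GRCm38, mm10). The authors deposited 1 gene table per library, with RSEM's expected counts (estimated counts, not normalized), the abundance-weighted transcript length and TPM values. The deposited FPKM values were not used. Reads shared by similar genes are divided by RSEM, strand use is not given in the sources used here, and precision covers counting and sample spread only.

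Expected counts were rounded and DMHCA libraries 1 and 3 summed. edgeR 4.0.16 (R 4.3.3) was run with TMM, filterByExpr (minimum count 10, minimum total 15) and the quasi-likelihood F-test on 3 control and 2 DMHCA samples, with Benjamini-Hochberg adjustment over 19427 genes. For normalized counts, each sample was divided by its TMM-adjusted total and multiplied by the mean of these totals. TPM, averaged over DMHCA libraries 1 and 3, served for levels between genes and for ratios, which were compared by exact two-sided permutation over samples. Alternatives were DESeq2 1.42.0, limma 3.58.1 on log2(TPM + 1), other scaling, filters and dispersions, all 6 libraries with or without replicate number as a block, and each library left out. The edgeR script was tested on simulated data for the direction and median size of planted changes. That test set no requirement on the number of genes called. Of the 55385 genes, 55144 were found in the GENCODE annotation used for coordinates. Promoter windows are from RefSeq.

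The members and gene lists were chosen with earlier results of these data known. From the lists of SREBP-1, SREBP-2, ChREBP and LXR targets the 4 genes with the smallest unadjusted p were named, and from each other list the 2 with the smallest. Some genes of these lists are not reported here by name. The study's text gives 3 mice per group, but DMHCA libraries 1 and 3 were too alike to be counted as 2 samples, and the labels do not name the animals.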

Additional observations from a re-analysis of the deposited data

How the results depend on the processing

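With 3 control and 2 DMHCA samples the exact test could not go below p = 0.2. The 0 calls of edgeR depend on the filter and the tool. Without the filter on low counts edgeR called 16 genes and no member. DESeq2 called 244 genes on 5 samples and 882 on 6 libraries, each time with 1 member, Srebf1, at log2 fold changes of 2.04 and 2.11. The fit on 6 libraries treats the nearly identical DMHCA libraries 1 and 3 as separate samples. The log2 fold change of Srebf1 was 1.81 to 2.30 when each library was left out and 2.0 to 2.27 under the other settings. Its edgeR adjusted p was 0.0811 without the filter on low counts, 0.182 on 6 libraries and 0.492 to 0.959 with a library left out.

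Insig1 changed sign, to 0.09 with DESeq2 on 6 libraries, 0.07 with edgeR on 6 libraries, 0.07 with limma on log2(TPM + 1), 0.08 without control library 2 and 0.38 without DMHCA library 2 (range -0.15 to 0.38 with each library left out). Mbtps2 changed sign to 0.09 with limma and 0.04 without control library 2 (range -0.32 to 0.04). The other 7 members kept their direction under all 14 alternatives. With each library left out, the median of the LXR and RXR receptors ranged from -0.14 (without DMHCA library 2) to 0.56, and that of the MLX and MAX network from -0.19 to 0.11 (without control library 2). The cause was not tested. All genes had a median of -0.03 under both scalings. The comparison of TPM with normalized counts and the list counts with libraries left out were added after seeing the data.

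Correlations of deviations from the group means were -0.0468, 0.316 and 0.33 for same-numbered control and DMHCA libraries. For the other pairs they lay between -0.363 and 0.319. Each group holds 3 libraries, and DMHCA libraries 1 and 3 were nearly the same. These values therefore cannot show whether same-numbered libraries were paired. With the replicate number as a block on 6 libraries, edgeR called 0 genes, 2 members had an unadjusted p under 0.05 (Srebf1 and Insig2) and Insig1 was at 0.03, while Srebf1 was at 2.09 with an adjusted p of 0.184.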
